A study of Mus musculus with 6 samples.

Results

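The netrin and semaphorin signalling genes followed here are 10 of the 31017 genes in the count table, taken by symbol: the secreted ligands Ntn1, Sema3c and Sema3f, the membrane-bound ligands Sema4b and Sema4d, the netrin receptor Unc5b, and the plexin receptors Plxna1, Plxnb1, Plxnb2 and Plxnd1. They were measured by poly(A) RNA sequencing in 4T1, a mouse mammary carcinoma cell line, embedded in collagen I gels. The series holds 3 ETV4 KO libraries, from cells nucleofected with Cas9 and guides against Etv4, whose product belongs to the PEA3 branch of the ETS transcription factors. They were set against 3 control libraries, from cells nucleofected with Cas9 and control guides. All 3 ETV4 KO libraries carry the same code in their names; whether it denotes a single clone, and whether the replicates were separate cultures, is not stated in the labels. The p-values therefore measure the spread among libraries, and that spread may be technical. The labels name more than one collagen concentration and not the one used for a given library. Cells of both groups were freed from the gel with collagenase before RNA was extracted.

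Netrins and semaphorins were first described as cues that steer growing axons, and the same proteins act on adhesion and motility in epithelia and tumours. Netrin-1, the product of Ntn1, is a laminin-related secreted protein bound by receptors of the DCC, neogenin and UNC5 families; UNC5B belongs to the dependence receptors, which can signal cell death when no netrin is bound. Semaphorins share a sema domain and signal through plexins, whose cytoplasmic part acts as a GTPase-activating protein on small G proteins. Class 3 semaphorins are secreted and most need a neuropilin as co-receptor, whereas class 4 semaphorins are membrane proteins that bind plexins directly.

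Total counts ran from 24356286 to 29042569 in ETV4 KO libraries and from 22355015 to 26669985 in control libraries. Libraries correlated at r = 0.9978 to 0.9981 within a group and at 0.9688 to 0.9699 between groups (log2 CPM, across genes). Etv4 itself had 2503, 2217 and 2207 counts in ETV4 KO and 3098, 3648 and 3030 counts in control, or 89.8 CPM ± 2.44 and 133.9 CPM ± 0.752 (SD, n = 3 each), a difference of -0.58 on the log2 scale (SE 0.036; edgeR, adjusted p = 1.03e-14); with the median change of its chromosomal surroundings taken out it was -0.11. A count over the whole gene does not show whether the protein was lost. Of the 6 genes listed as markers of mammary carcinoma epithelium all were detected, with a summed level of 4018 to 4182 CPM in ETV4 KO and 5581 to 5720 CPM in control (by library totals), and 5 of the 6 were called lower, where 36.0% of all tested genes were; their part in the members' values was not tested. The neuron markers Rbfox3 and Snap25, the macrophage markers Adgre1 and Lyz2, the lymphocyte markers Cd3e, Cd3g and Ms4a1, the fibroblast markers Lum and Thy1, the endothelial marker Emcn and the glial marker Sox10 had 0 counts in all 6 libraries. The 5 neuron markers (counts nearly all Map2) summed to 34.0 to 35.3 CPM in ETV4 KO and 37.4 to 43.6 CPM in control. The 5 macrophage markers (counts mostly Cd68) summed to 9.24 to 11.2 CPM in ETV4 KO and 10.0 to 10.7 CPM in control. The 6 fibroblast markers (counts nearly all Pdgfra) summed to 12.4 to 14.2 CPM in ETV4 KO and 9.89 to 11.6 CPM in control. The lymphocyte, endothelial and glial lists, of 5 genes each, stayed at or below 3.08 CPM in every library.

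In ETV4 KO cells the netrin-1 transcript was lower. Both tested netrin receptor transcripts, Unc5b and Neo1, were called higher, where 35.0% of all tested genes were. The plexins and most semaphorins of the set differed little from control. Ntn1 was 3.18-fold lower, and Unc5b was 1.22-fold higher. On the log2 scale Unc5b changed by 0.292, close to the median absolute change of 0.285 over all tested genes. In bulk RNA fewer cells that express a gene and less RNA per cell cannot be told apart, and this holds for each value given here. Among the semaphorins Sema4b was 1.51-fold higher, Sema3f and Sema4d did not pass the test, and Sema3c was close to undetected in both groups. Of the plexins Plxna1 and Plxnd1 were called higher, by 1.09-fold and 1.16-fold, and Plxnb1 and Plxnb2 were not called. Outside the 10 genes, the neuropilin gene Nrp1 was 3.84-fold and Neo1 2.06-fold higher.

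Start-site sequences of the members are shown because the altered gene encodes an ETS factor, a family that binds a GGAA core. RefSeq promoter windows (GRCm38.p6, 250 bases before to 50 after a start site) were given for 7 of the 10 members, 11 windows in all. A pair of motifs that extend the core, CGGAAG and AGGAAG, were searched on both strands; they differ in their first letter, so no site on a given strand matches both. Each window is printed 5′ to 3′ on the gene's strand, in lower case, with matches in capitals; a match on the opposite strand reads CTTCCG or CTTCCT. Sema4b, the largest called rise with a window, is shown at both its start sites (chr7:80186620-80186919, plus strand, and chr7:80198338-80198637, plus strand), with the plexins that hold a match, Plxnb1 (chr9:109095186-109095485, plus strand) and Plxnd1 (chr6:115994956-115995255, minus strand).
Sema4b, first start site: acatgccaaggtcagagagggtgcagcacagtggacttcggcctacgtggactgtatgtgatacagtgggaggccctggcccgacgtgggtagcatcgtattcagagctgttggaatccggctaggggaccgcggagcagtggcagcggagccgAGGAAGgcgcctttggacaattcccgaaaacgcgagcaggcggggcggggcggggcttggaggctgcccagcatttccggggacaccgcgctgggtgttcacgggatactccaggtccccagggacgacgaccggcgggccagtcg
Sema4b, second start site: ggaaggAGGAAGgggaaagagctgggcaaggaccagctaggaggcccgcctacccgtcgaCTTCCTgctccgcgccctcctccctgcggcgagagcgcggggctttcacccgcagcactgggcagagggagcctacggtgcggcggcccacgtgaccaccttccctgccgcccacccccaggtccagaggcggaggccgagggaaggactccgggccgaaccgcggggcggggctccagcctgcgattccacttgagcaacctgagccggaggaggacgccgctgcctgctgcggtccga
Plxnb1: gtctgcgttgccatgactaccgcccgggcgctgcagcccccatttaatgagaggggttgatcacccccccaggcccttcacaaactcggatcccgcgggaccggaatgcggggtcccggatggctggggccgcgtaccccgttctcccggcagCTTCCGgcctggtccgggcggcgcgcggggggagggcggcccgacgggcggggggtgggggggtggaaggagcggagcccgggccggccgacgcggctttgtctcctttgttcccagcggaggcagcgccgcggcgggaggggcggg
Plxnd1: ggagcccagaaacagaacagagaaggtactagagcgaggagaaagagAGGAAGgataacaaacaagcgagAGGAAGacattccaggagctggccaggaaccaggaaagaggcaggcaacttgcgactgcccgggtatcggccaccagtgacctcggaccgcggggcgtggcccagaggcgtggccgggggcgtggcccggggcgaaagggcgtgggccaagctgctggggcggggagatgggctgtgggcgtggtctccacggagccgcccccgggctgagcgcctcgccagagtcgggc

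The first Sema4b window holds AGGAAG beginning 96 bases upstream of the start site, and the second holds it at 244 bases and, on the opposite strand, at 190 bases upstream. Plxnd1 holds it at 203 and 180 bases upstream. Plxnb1 holds the only CGGAAG among the members, on the opposite strand at 97 bases upstream. A further AGGAAG lies in 1 of the 3 Sema4d windows, 127 bases upstream. AGGAAG was thus in 4 of 11 member windows, or 36.4%, against 35.4% of all 32851 mouse windows and 32.6% of the 11897 windows of tested genes. CGGAAG was in 1 of 11, or 9.09%, against 16.9% of all windows and 31.4% of those of tested genes. The windows of Unc5b, Plxnb2 and Sema3c held neither motif. No window was given for Ntn1, Sema3f or Plxna1, so their start sites were not analysed here. A match is a description of these letters and not evidence of binding.

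Levels were compared between genes on a length scale, as TMM-scaled CPM per kb of annotated exon. TMM scaling adjusts library totals so that fold changes of most genes centre near 0. In ETV4 KO the order was Unc5b at 52.9 ± 0.778, Plxnb2 at 51.5 ± 0.614, Sema3f at 25.7 ± 0.642, Sema4b at 21.7 ± 0.154, Plxna1 at 13.3 ± 0.736, Plxnb1 at 12.9 ± 0.127, Sema4d at 7.15 ± 0.153, Ntn1 at 6.01 ± 0.369 and Plxnd1 at 1.55 ± 0.0392 CPM per kb (SD, n = 3 each), with Sema3c last. In control the order was Plxnb2 at 49.9 ± 1.14, Unc5b at 43.2 ± 0.569, Sema3f at 24.3 ± 1.08, Ntn1 at 19.1 ± 0.0721, Sema4b at 14.4 ± 0.628, Plxnb1 at 13.1 ± 0.467, Plxna1 at 12.2 ± 0.385, Sema4d at 7.48 ± 0.140 and Plxnd1 at 1.35 ± 0.143 CPM per kb (SD, n = 3 each), again with Sema3c last. Ntn1 thus stood at rank 8 of the 10 genes in ETV4 KO and at rank 4 in control. Within ETV4 KO the library ranges of Unc5b and Plxnb2 overlapped, and so did those of Plxna1 and Plxnb1; within control no neighbours in the order overlapped. Which isoforms the counts cover is unknown: with the longest transcript as the length Plxnb2 stood above Unc5b and Plxnb1 above Plxna1 in ETV4 KO, and Sema4b stood above Ntn1 and Sema4d above Plxna1 in control.

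**Figure D1:**
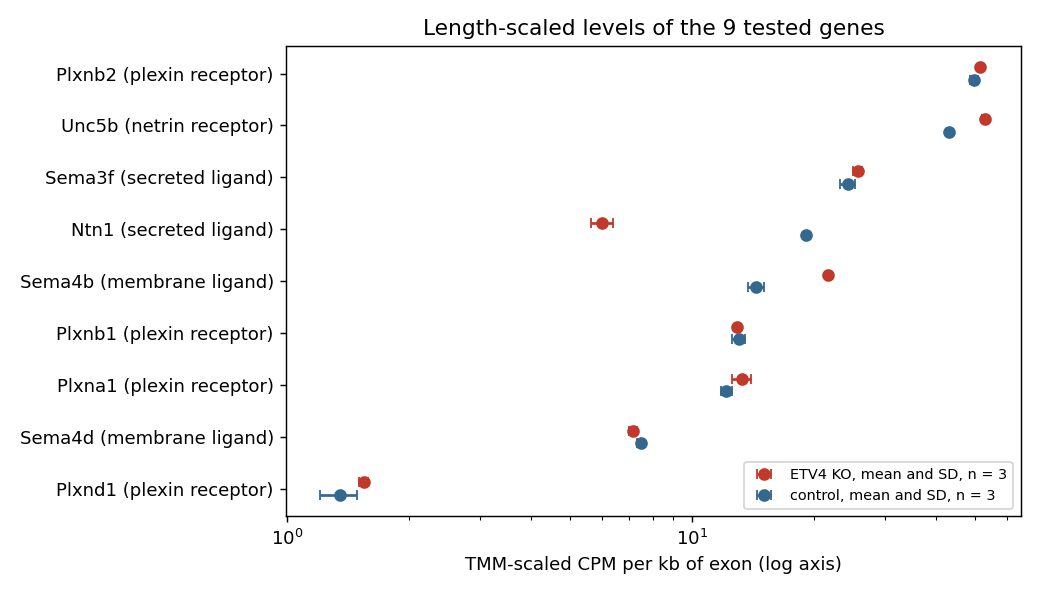
Mean TMM-scaled CPM per kb of exon (log axis) for the 9 tested genes, with ETV4 KO in red above control in blue in each row and SD bars over 3 libraries. Ntn1 is the gene whose groups lie farthest apart, at 6.01 and 19.1 CPM per kb, while Plxnb1, at 12.9 and 13.1, nearly coincides.

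Of the 10 members 9 passed the filter on low counts and were tested with edgeR's quasi-likelihood test over 12076 genes, with Benjamini-Hochberg adjustment over all of them and a call at an adjusted p under 0.05. In ETV4 KO 4 of the 9 were called higher and 1 lower, against a background of 35.0% higher and 36.0% lower among all tested genes. That is 55.6% called in either direction, where 71.1% of all tested genes were, so the share of called members was not above the background. The groups did not overlap for 5 of the 9, against 72.7% of all tested genes. The median log2 fold change was 0.08 over the 9 members and -0.00384 over all tested genes. Of the 9 only Ntn1 changed by at least 2-fold, and it was lower. Among all tested genes 6.02% were at least 2-fold lower, and 4.45% had an absolute log2 fold change at least that of Ntn1.

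**Figure D2:**
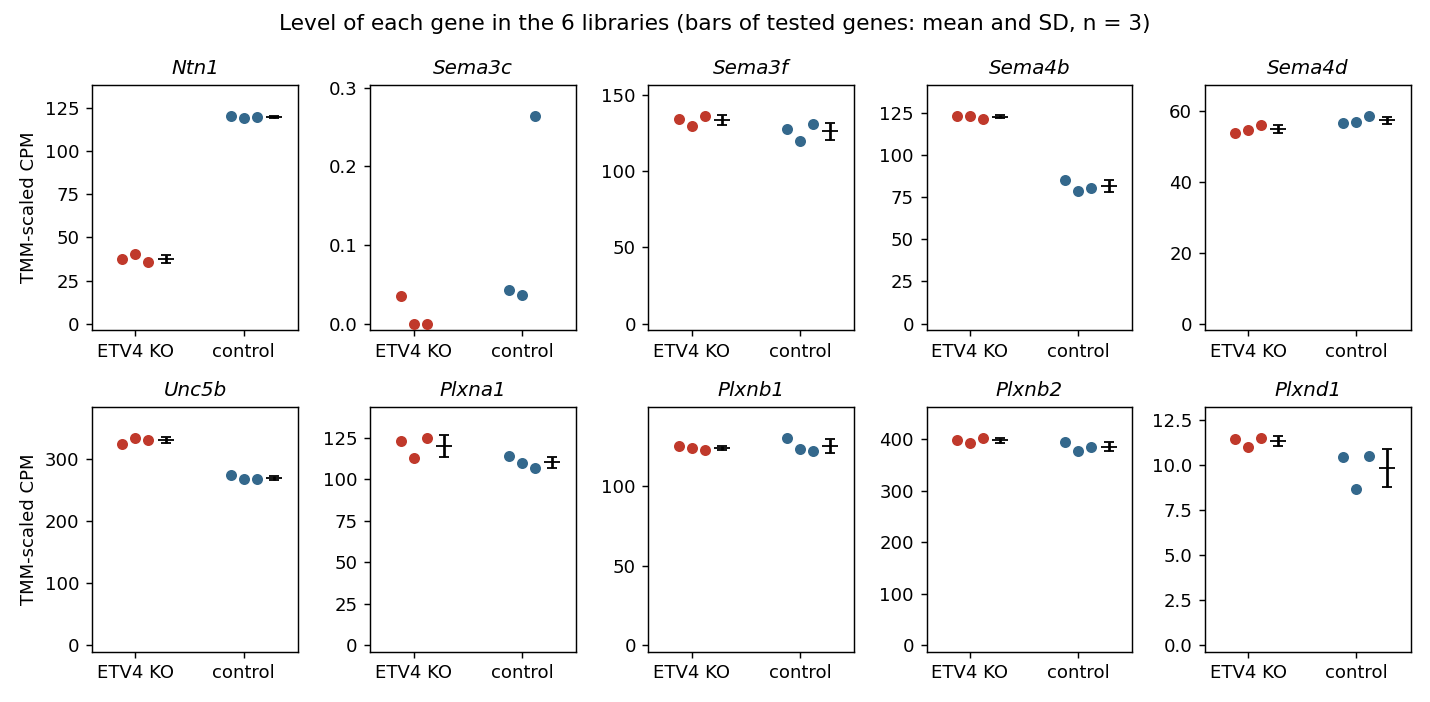
TMM-scaled CPM of each gene in the 3 ETV4 KO libraries (red, left) and the 3 control libraries (blue, right), each panel on its own axis from 0, with mean and SD bars for the 9 tested genes. The groups are far apart for Ntn1 (35.7 to 40.2 against 119.4 to 120.3 CPM) and clearly apart for Sema4b and Unc5b, and they overlap for Sema3f, Plxna1, Plxnb1 and Plxnb2.

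Ntn1 (ENSMUSG00000020902.12; mm10 chromosome 11, 68209364 to 68400823, minus strand), the gene for the secreted ligand netrin-1, had 37.2, 40.2 and 35.7 CPM in ETV4 KO replicates 1, 2 and 3, from 1065, 996 and 853 counts. In control replicates 1, 2 and 3 it had 120.3, 119.4 and 119.7 CPM, from 2791, 3234 and 2722 counts. Every ETV4 KO library lay far below every control library, and the control values differed by less than 1 CPM. The log2 fold change was -1.67 (SE 0.043, edgeR adjusted p = 4.41e-24; 95% interval -1.76 to -1.58), the same direction in 3 of 3 libraries. Ntn1 lies on chromosome 11, where expressed genes had a median log2 fold change of -0.38. Of the 88 other expressed genes within 5 Mb of it, 87 had a higher log2 fold change than Ntn1 and 1 a lower one, and the 5th and 95th percentiles were -0.95 and 0.03. With the median of its 10 Mb bin taken out, -0.36 over 83 genes, Ntn1 had -1.31 (edgeR adjusted p = 2.23e-21). Etv4 is also on chromosome 11, at 101769742 to 101785371, in another 10 Mb bin. Whether its position bears on Ntn1 was not tested.

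Sema3f and Sema3c are the secreted class 3 semaphorins of the set. Sema3F is known for repelling cells through neuropilin-2, and Sema3C for binding both neuropilins. Sema3f (chromosome 9, 107681500 to 107710475, minus strand) had 134.3, 129.6 and 136.1 CPM in ETV4 KO and 127.6, 119.9 and 130.9 CPM in control. One of the ETV4 KO libraries, replicate 2, lay inside the control range. The log2 fold change was 0.08 (SE 0.038, edgeR adjusted p = 0.0544; 95% interval 0.00 to 0.16), just outside the threshold. It passed without control replicate 3 (0.11, adjusted p = 0.0297), without ETV4 KO replicate 2 (0.10, adjusted p = 0.0151), with RLE factors (0.08, adjusted p = 0.0473) and with no low-count filter (0.09, adjusted p = 0.0384), and with the 10 Mb bin median taken out it was 0.00 (adjusted p = 0.917). Sema3c (chromosome 5, 17574281 to 17730268, plus strand) had 1, 0 and 0 counts in ETV4 KO and 1, 1 and 6 counts in control. It was not tested. The ratio of 1 count in ETV4 KO to 8 in control, scaled by total counts, was 0.114 with a 95% Clopper-Pearson interval of 0.00257 to 0.850 that covers counting error only, and 6 of the 8 control counts came from replicate 3.

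Sema4b and Sema4d encode class 4 semaphorins with a transmembrane segment. Sema4D is the ligand of plexin-B1 and is also known as CD100, an immune cell surface protein that can be shed by proteolysis. Sema4b (chromosome 7, 80186841 to 80226527, plus strand) had 122.9, 122.9 and 121.4 CPM in ETV4 KO and 85.3, 78.5 and 80.1 CPM in control. All 3 ETV4 KO libraries were above all control libraries, by more than the spread in either group, and the log2 fold change was 0.59 (SE 0.038, edgeR adjusted p = 2.19e-14). It was 0.48 with the median of its 10 Mb bin taken out. Of the 44 other expressed genes within 5 Mb, 42 had a lower log2 fold change. Sema4d (chromosome 13, 51685529 to 51793747, minus strand) had 53.8, 54.8 and 56.2 CPM in ETV4 KO and 56.7, 56.8 and 58.6 CPM in control. The groups did not overlap but were less than 1 CPM apart at their nearest, and the gene did not pass, with a difference of -0.06 on the log2 scale (SE 0.043; edgeR, adjusted p = 0.183; 95% interval -0.15 to 0.02). Sema4d was called lower with upper-quartile factors (-0.10, adjusted p = 0.0367), with library size only (-0.12, adjusted p = 0.0187) and with the bin median taken out (-0.20, adjusted p = 0.000187).

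Within the semaphorin members alone the balance shifted with Sema4b. Of the summed level per kb of the semaphorin members, Sema4b made up 39.8% ± 0.671 in ETV4 KO and 31.2% ± 0.982 in control (SD, n = 3 each). Sema3f made up 47.1% ± 0.674 in ETV4 KO and 52.6% ± 0.842 in control (SD, n = 3 each), and Sema4d 13.1% ± 0.255 in ETV4 KO and 16.2% ± 0.486 in control. The groups did not overlap for these shares. The ratio of Sema4b to Sema4d was 3.11, 3.05 and 2.94 in ETV4 KO and 2.05, 1.88 and 1.86 in control. These shares follow from the levels above and depend on the exon lengths used. They leave out semaphorins outside the set, so they do not describe all semaphorin transcripts. Sema6b, for example, had 10.2 CPM per kb in ETV4 KO and 3.30 in control, and Sema7a had 5.41 in ETV4 KO and 9.08 in control.

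Unc5b (chromosome 10, 60762593 to 60831581, minus strand), the netrin receptor of the set, had 325.3, 334.8 and 332.0 CPM in ETV4 KO and 274.2, 268.2 and 267.9 CPM in control. Every ETV4 KO library was above every control library, and the gap exceeded the spread within either group. The log2 fold change was 0.29 (SE 0.031, edgeR adjusted p = 1.57e-09), and 0.33 with the bin median taken out. Per kb the level of Unc5b was 8.77, 8.35 and 9.33 times that of Ntn1 in ETV4 KO replicates 1, 2 and 3 and 2.29, 2.25 and 2.24 times in control replicates 1, 2 and 3, a shift that comes mostly from Ntn1. Of the other netrin receptor genes, Unc5a, Unc5c and Unc5d had 0 counts in all libraries, and Dcc had 0 counts over the ETV4 KO libraries and 2 over the control libraries.

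Plexin-A1 is the signalling partner of neuropilins for several secreted semaphorins. Plxna1 (chromosome 6, 89316314 to 89362620, minus strand) had 123.3, 112.7 and 125.0 CPM in ETV4 KO and 113.8, 109.8 and 106.9 CPM in control. ETV4 KO replicate 2 lay inside the control range, so the groups overlapped, although the gene was called higher with a difference of 0.13 on the log2 scale (SE 0.040; edgeR, adjusted p = 0.00549). The call was lost with library size only (0.08, adjusted p = 0.0907). The 59 other expressed genes of its bin had a median of -0.27, and with that taken out Plxna1 had 0.40 (adjusted p = 5.89e-10). The antisense gene Gm26811 shares 970 exon bases with Plxna1 and had 89 counts over the ETV4 KO libraries and 67 over the control libraries, against 9310 and 8043 for Plxna1.

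Plexin-D1 is the receptor for Sema3E, which it binds without a neuropilin. Plxnd1 (chromosome 6, 115954811 to 115995005, minus strand) was the lowest of the plexins per kb, and had 11.5, 10.99 and 11.5 CPM in ETV4 KO and 10.4, 8.64 and 10.5 CPM in control. The ETV4 KO libraries were above the control libraries, with control replicate 2 lower than the rest. The log2 fold change was 0.21 (SE 0.087, edgeR adjusted p = 0.0348). This call rested on single libraries. Leaving out control replicate 2 gave 0.11 (adjusted p = 0.280), leaving out ETV4 KO replicate 1 gave 0.20 (adjusted p = 0.0775) and leaving out ETV4 KO replicate 3 gave 0.20 (adjusted p = 0.0748). It was also lost with DESeq2 (0.21, adjusted p = 0.0900), with upper-quartile factors (0.17, adjusted p = 0.0811) and with library size only (0.16, adjusted p = 0.109). With the bin median of -0.16 taken out Plxnd1 had 0.37 (edgeR adjusted p = 0.000559).

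Plexin-B1 and plexin-B2 are receptors of class 4 semaphorins and act on RhoA through guanine nucleotide exchange factors. Plxnb2 (chromosome 15, 89155549 to 89180788, minus strand) had 398.0, 392.6 and 402.1 CPM in ETV4 KO and 393.8, 376.1 and 384.5 CPM in control. These ranges overlapped. The log2 fold change was 0.05 (SE 0.031, edgeR adjusted p = 0.176; 95% interval -0.02 to 0.11). Plxnb1 (chromosome 9, 109095389 to 109119917, plus strand) had 125.2, 124.3 and 122.8 CPM in ETV4 KO and 130.4, 123.6 and 121.9 CPM in control, with the ETV4 KO values inside the control range. Its log2 fold change was -0.01 (SE 0.036, edgeR adjusted p = 0.757; 95% interval -0.09 to 0.06). It was called lower with the median of its bin taken out (-0.09, adjusted p = 0.0308). The antisense gene Gm7628 shares 257 exon bases with Plxnb1 and had 116 counts in ETV4 KO and 160 in control, against 9598 and 9141 for Plxnb1. Of the summed level per kb of the plexin members, Plxnb2 made up 65.0% ± 0.397 in ETV4 KO and 65.2% ± 0.458 in control (SD, n = 3 each). Plxna3 and Plxna4, which are outside the set, are not in this sum. The level of Plxnb1 per kb was 1.86, 1.82 and 1.75 times that of its ligand gene Sema4d in ETV4 KO and 1.84, 1.74 and 1.66 times in control.

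**Figure D3:**
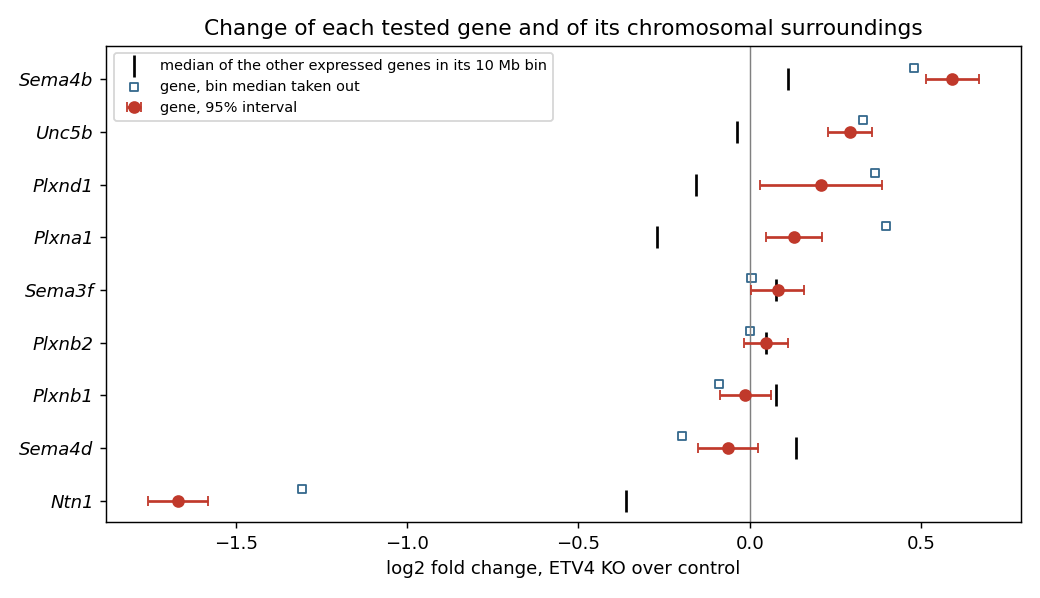
Log2 fold change of the 9 tested genes, ETV4 KO over control (red, 95% interval from edgeR), with the median change of expressed neighbours in the same 10 Mb bin (black tick) and the value with that median taken out (blue square). Ntn1 lies at -1.67 where its bin is at -0.36, whereas Sema3f and Plxnb2 coincide with their bins.

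The chromosomal surroundings differed between members. The bin medians ran from -0.36 for Ntn1 to 0.13 for Sema4d. Plxna1 and Plxnd1, both on chromosome 6, were higher in bins with negative medians, -0.27 and -0.16. Of 51 expressed genes within 5 Mb of Plxna1, 46 had a log2 fold change below that of Plxna1. Near Plxnd1, 53 of 55 had one below that of Plxnd1. Sema3f and Plxnb1 share a bin on chromosome 9. The part that these regional differences have in the members' values was not tested, and the bin step treats the local median as known.

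Beyond the 10 members, 55 of 90 other guidance genes in the table, drawn from 10 lists of ligands, receptors and effectors, passed the low-count filter. Of these 24 were called higher and 18 lower, with a median log2 fold change of 0.06, beside 35.0% and 36.0% of all tested genes. Both neuropilins, the co-receptors of class 3 semaphorins, rose. Nrp1 had 69.6 CPM ± 3.44 in ETV4 KO and 18.1 CPM ± 0.366 in control (SD, n = 3 each), a difference of 1.94 on the log2 scale (SE 0.053; edgeR, adjusted p = 1.57e-23). Nrp2 had 902.2 CPM ± 22.2 in ETV4 KO and 668.1 CPM ± 9.68 in control (SD, n = 3 each), a difference of 0.43 on the log2 scale (SE 0.031; edgeR, adjusted p = 1.74e-13).

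Neo1, which encodes a receptor for netrin-1 and for repulsive guidance molecules, was the 1 tested gene of 8 in the netrin receptor list, with 359.0 CPM ± 17.6 in ETV4 KO and 174.4 CPM ± 4.73 in control (SD, n = 3 each), a difference of 1.04 on the log2 scale (SE 0.036; edgeR, adjusted p = 6.26e-21). Both tested genes of the repulsive guidance molecule list were called higher, where 35.0% of all tested genes were. Rgmb, at 0.35 on the log2 scale, was however -0.21 and called lower with its bin median taken out. Rgma had 6.76 CPM ± 0.268 in ETV4 KO and 2.79 CPM ± 0.669 in control (SD, n = 3 each), a difference of 1.27 on the log2 scale (SE 0.14; edgeR, adjusted p = 1.93e-09). Of the 2 tested netrin genes outside the set, Ntn4, which encodes a basement membrane netrin, had 0.842 CPM ± 0.384 in ETV4 KO and 2.47 CPM ± 0.0765 in control, a difference of -1.53 on the log2 scale (SE 0.24; edgeR, adjusted p = 1.74e-06), and Ntng2, which encodes a membrane-anchored netrin-G, was higher by 0.31, or by 0.15 with the bin median taken out.

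Other semaphorins moved in both directions. Of 8 tested membrane semaphorins 3 were called higher and 4 lower, against 35.0% higher and 36.0% lower among all tested genes. Beside those described next, Sema6d was higher (0.72 on the log2 scale), and Sema4c (-0.41), Sema6c (-0.48) and Sema7a (-0.75) were lower; Sema6c did not pass with its bin median taken out (edgeR adjusted p = 0.249). Of the 2 tested class 3 genes, Sema3e, the gene for the plexin-D1 ligand, had 44.5 CPM ± 1.12 in ETV4 KO and 28.98 CPM ± 1.52 in control (SD, n = 3 each) and was higher by 0.62 on the log2 scale (SE 0.052; edgeR, adjusted p = 8.78e-12), or by 0.39 with the median of its chromosome taken out. The other, Sema3b, was lower, with 17 counts over the ETV4 KO libraries and 71 over the control libraries. Sema6b had 40.6 CPM ± 1.38 in ETV4 KO and 13.1 CPM ± 0.698 in control (SD, n = 3 each), a difference of 1.63 on the log2 scale (SE 0.060; edgeR, adjusted p = 3.28e-20). Sema5a had 5.80 CPM ± 0.931 in ETV4 KO and 2.58 CPM ± 0.494 in control (SD, n = 3 each) and rose by 1.17 on the log2 scale (SE 0.15; edgeR, adjusted p = 6.62e-08), or by 0.76 with the bin median taken out. Sema6a, at -1.90 on that scale, was lower (SE 0.27; edgeR, adjusted p = 3.50e-07), from 43 counts over the ETV4 KO libraries and 152 over the control libraries. Of the 2 tested plexins outside the set Plxna4 was higher (0.97 on the log2 scale; edgeR, adjusted p = 1.87e-08) and Plxna3 was not called (0.08; edgeR, adjusted p = 0.292).

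Of 27 tested effectors 9 were called higher and 9 lower, beside 35.0% higher and 36.0% lower among all tested genes, so neither count stood above the background. Mical2, a monooxygenase that oxidises actin and belongs to a family of plexin effectors, had 14.9 CPM ± 0.690 in ETV4 KO and 6.58 CPM ± 0.346 in control (SD, n = 3 each), a difference of 1.18 on the log2 scale (SE 0.086; edgeR, adjusted p = 3.53e-13). Of 6 tested plexin co-receptors and partners Met, Itgb1, Ptk7 and L1cam were called higher, by 0.14 to 0.46 on the log2 scale, and Erbb2 lower, at -0.56; with the bin median taken out Ptk7 was at 0.10 and Erbb2 at -0.20. Among Slit and Robo genes and their GAPs 0 of 3 tested genes were called higher and 2 lower by edgeR, Srgap3 at -0.23 on the log2 scale and Robo1, a receptor for Slit ligands, with 0.714 CPM ± 0.391 in ETV4 KO and 3.94 CPM ± 0.165 in control, a difference of -2.41 on the log2 scale (SE 0.23; edgeR, adjusted p = 1.01e-10). Srgap3 did not pass with its bin median taken out (-0.07; edgeR, adjusted p = 0.178), which left 1 gene of this list called lower.

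**Figure D4:**
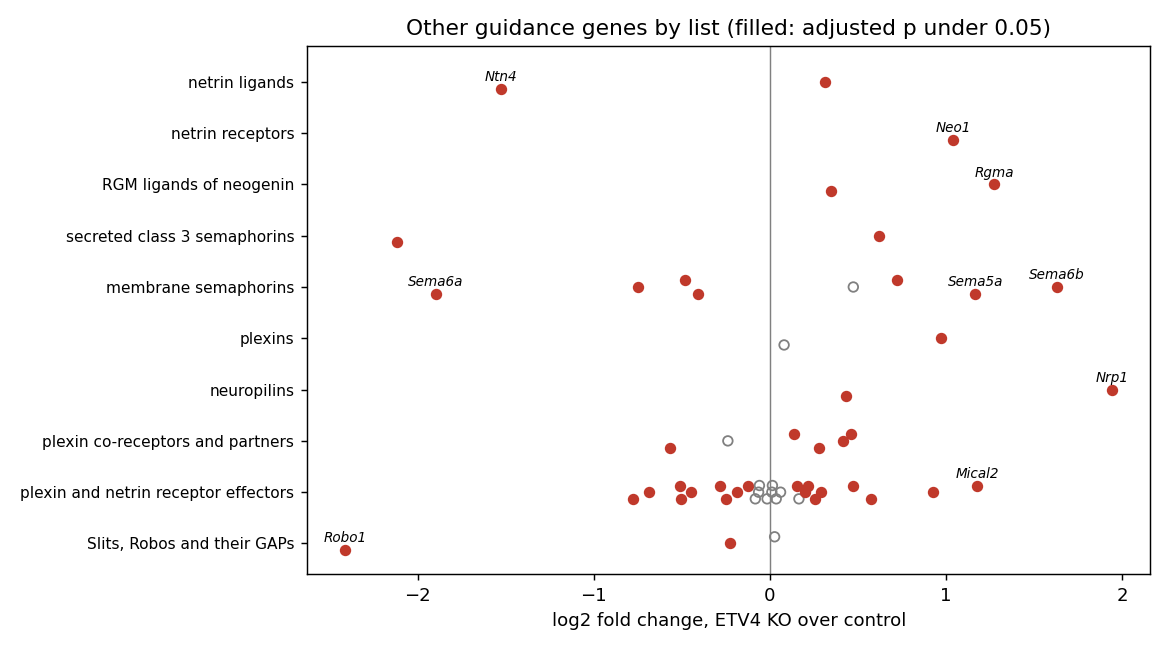
Log2 fold change, ETV4 KO over control, of the 55 tested guidance genes outside the 10 members, one row per list, with filled points for an edgeR adjusted p under 0.05 and names for called genes that changed at least 2-fold and reached at least 1 CPM in the higher group. Both neuropilins lie right of 0 (0.43 and 1.94), whereas membrane semaphorins reach from -1.90 to 1.63.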

How the data were processed

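Poly(A) RNA of 3 ETV4 KO and 3 control samples was measured with a stranded library kit, per the labels' protocols. Raw counts of reads, 1 column for each library and 1 row for each gene symbol, are what the authors deposited; the unit was read from the values, which are whole numbers. STAR 2.7.9a, featureCounts, FastQC 0.11.9, R 4.1.1 and the builds mm10 and hg38 are listed, without roles, per the submitters' processing notes. No source used here states the annotation, strand setting or treatment of multiply mapped reads, so reads of overlapping antisense genes cannot be told apart.

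Samples were grouped by title and columns matched by library name. Counts were analysed with edgeR 4.0.16 in R 4.3.3: filterByExpr (minimum count 10, minimum total 15), TMM factors, glmQLFit and glmQLFTest with group as the term, across all 12076 genes kept. Log2 fold changes are ETV4 KO over control, and the SE is the absolute log2 fold change over the square root of F. Exon lengths and positions come from GENCODE M21 (mm10), promoters from RefSeq.

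Alternatives were RLE and upper-quartile factors, library size only, DESeq2 1.42.0, limma-voom (limma 3.58.1), no low-count filter and a CPM of at least 1 in at least 3 libraries, a replicate block, each library left out, an adjusted p under 0.01, glmTreat against 1.5-fold, and the median of the other expressed genes (edgeR log2 CPM above 3) of a gene's 10 Mb bin as an offset. The edgeR fit and the bin step alone were run on simulated counts. Far fewer genes were changed there than were called here, so the outcome is not used as support. The members, lists and alternatives were chosen with earlier results of these data known. Named genes are all members, Etv4, Nrp1, Nrp2, Neo1 and, per list, called genes with an absolute log2 fold change of at least 1 and at least 1 CPM in the higher group, at most 3 in each direction; genes named beyond this were chosen after their values were seen.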

Additional observations from a re-analysis of the deposited data

How the results depend on the processing

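Each tested member was refitted under 17 alternatives, 153 values in all, of which 130 kept their direction and their side of the threshold, 12 lost and 9 gained a call, and 2 changed sign. Both sign changes were in genes that were not called: Plxnb2 with library size only (-0.004083), and Plxnb1 without control replicate 1, where leaving out single libraries gave -0.03197 to 0.01574. Ntn1 was called lower under each of the 17, with log2 fold changes of -1.72 to -1.31. In place of 4 members called higher there were 2 with library size only and 0 with glmTreat against 1.5-fold (0 also at an unadjusted p under 0.05; edgeR), a test that asks for a larger change. The 1 member called lower became 2 with upper-quartile factors, 2 with library size only and 3 with the 10 Mb bin median taken out. The other guidance genes went to 8 higher and 7 lower with glmTreat. Apart from the construction of glmTreat, the cause was not tested. Leaving out single libraries gave 3 to 5 members higher. With the replicate block 5 members were higher and 1 lower, Sema3f being the one gained. Deviations of same-numbered libraries correlated at 0.0710, 0.0705 and 0.0186, and those of differently numbered libraries at -0.0863 to 0.0199. These values do not settle whether the numbers pair the samples, and the main fit did not use the numbers. Sema3c, with 1 and 8 counts, is below what this depth can compare.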
